A study of Homo sapiens with 13 samples.

Results

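Voltage-gated sodium channels were followed at the RNA level through 8 genes, of 56831 rows in each expression table, chosen by symbol as a family. They were the pore-forming α subunit genes *SCN1A*, *SCN2A*, *SCN3A*, *SCN8A* and *SCN9A*, the auxiliary β subunit genes *SCN2B* and *SCN3B*, and *NALCN*, which encodes a sodium leak channel. All 8 were present in the tables of both cell lines. The study examined RNA from H82 and H146 cells, established lines of small cell lung cancer (SCLC), a neuroendocrine tumour, which the study classes as SCLC-N and SCLC-A. Wild-type cells of either line were grown without drug or with FHD-286, an inhibitor of the chromatin-remodelling ATPases SMARCA2 and SMARCA4, at 100 nM for 14 days with the drug renewed every 2 days. There were 3 untreated and 3 treated libraries of H82 and 3 untreated and 4 treated libraries of H146. Whether the untreated cells received the solvent, and whether libraries of a group came from separate cultures, was not given in the sources used here, so p values measure the spread between these libraries, which may be technical.

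A voltage-gated sodium channel opens when the membrane is depolarised and carries the fast inward sodium current that starts an action potential. The α subunit forms the pore and senses voltage, while β subunits, single-pass membrane proteins, tune gating and surface level and take part in cell adhesion. *NALCN* encodes a relative of the α subunits that passes a steady sodium leak and helps to set the resting potential. SCLC cells resemble neuroendocrine cells of the airway and can fire action potentials, and sodium channels are part of that neuronal program.

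Values were TPM, reads per unit of gene length scaled to the same sum in every library, so levels of different genes can be set side by side. Treated and untreated libraries of a line were compared with limma on log2(TPM + 1), where a fold change of a gene with few TPM is understated. A gene entered the test if it reached 1 TPM in 3 or more libraries of its line, and was called when its two-sided p, adjusted over all genes tested, was under 0.05. Members below that filter were compared with a two-sided exact permutation test, which could not give less than 0.10 in H82 and 0.0286 in H146. Across all genes the differences were broad: 45.5% of 19770 tested genes were called lower and 13.1% higher in H82, against 15.5% lower and 32.5% higher of 19585 in H146. The median log2 fold change of all genes tested was -0.56 in H82 and 0.25 in H146, and a call for a member is read against these shares. When libraries were scaled by the median of ratios the medians were -0.14 and -0.02, with 6499 genes lower and 4793 higher in H82 and 4917 lower and 4165 higher in H146.

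The lines held different sets of these transcripts, and the order below is a description, since the tables were deposited separately and levels between lines were not tested. In untreated H146 the order of mean TPM was *SCN3A*, *SCN9A*, *SCN2A*, *NALCN*, *SCN8A*, *SCN1A*, *SCN3B* and *SCN2B*. *SCN3A* stood apart at 20.7 ± 1.86 TPM (SD, n = 3), the next 4 genes overlapped in range from neighbour to neighbour with means from 7.84 to 10.7 TPM, and *SCN2B* was listed at 0 in all 3 libraries. In untreated H82 *SCN3B* led at 13.9 ± 1.33 TPM (SD, n = 3), followed without overlap by *SCN8A* at 4.10 ± 0.262, *SCN3A* at 1.24 ± 0.302 and *SCN2A* at 0.818 ± 0.0205 TPM. *SCN1A*, *SCN9A* and *NALCN* lay under 0.2 TPM in every untreated H82 library and their ranges overlapped, and *SCN2B* was again listed at 0.

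**Figure D1:**
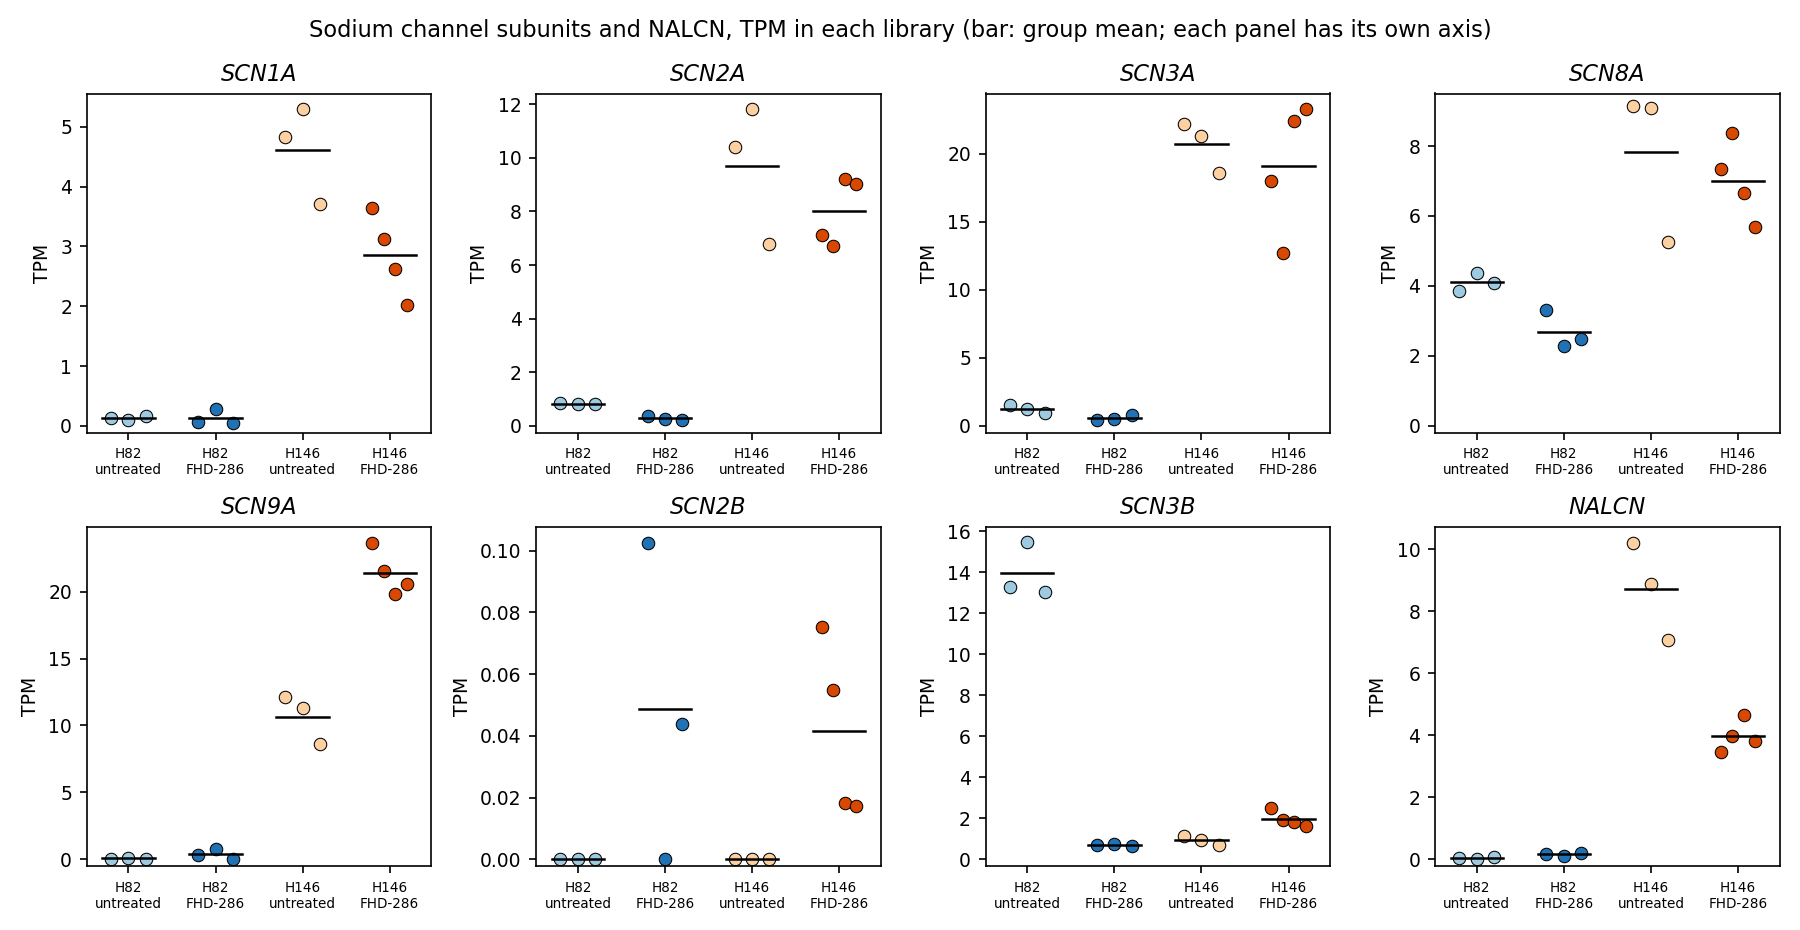
TPM of the 8 genes (one panel each, linear axis from 0, each panel with its own range) in every library, with 3 or 4 points a group and a bar at the group mean. SCN3B is high in untreated H82 alone, with 13.04 to 15.5 TPM, SCN9A and NALCN separate treated from untreated H146 in opposite directions, and SCN2B stays at or under 0.103 TPM in each library.

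In H82, 2 of the 8 members passed the filter, and 1 of them, *SCN3B*, was called lower, where 45.5% of all tested genes were. None was called higher by limma, and 0 were higher at an unadjusted p under 0.05. Over all 8 members the treated libraries lay below the untreated ones for *SCN2A*, *SCN3A*, *SCN8A* and *SCN3B* and above them for *NALCN*, and the groups overlapped for *SCN1A*, *SCN9A* and *SCN2B*. Treated and untreated ranges were likewise apart for 67.8% of the genes that passed the filter in H82, a set without *SCN2A*, *SCN3A* and *NALCN*. In H146, 7 members passed the filter, *SCN9A* and *SCN3B* were called higher and *NALCN* lower, where 32.5% and 15.5% of all tested genes were. There the treated libraries lay above the untreated ones for *SCN9A*, *SCN3B* and *SCN2B* and below them for *SCN1A* and *NALCN*, and the groups overlapped for *SCN2A*, *SCN3A* and *SCN8A*. Ranges were apart for 52.9% of the genes that passed the filter in H146, a set without *SCN2B*.

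**Figure D2:**
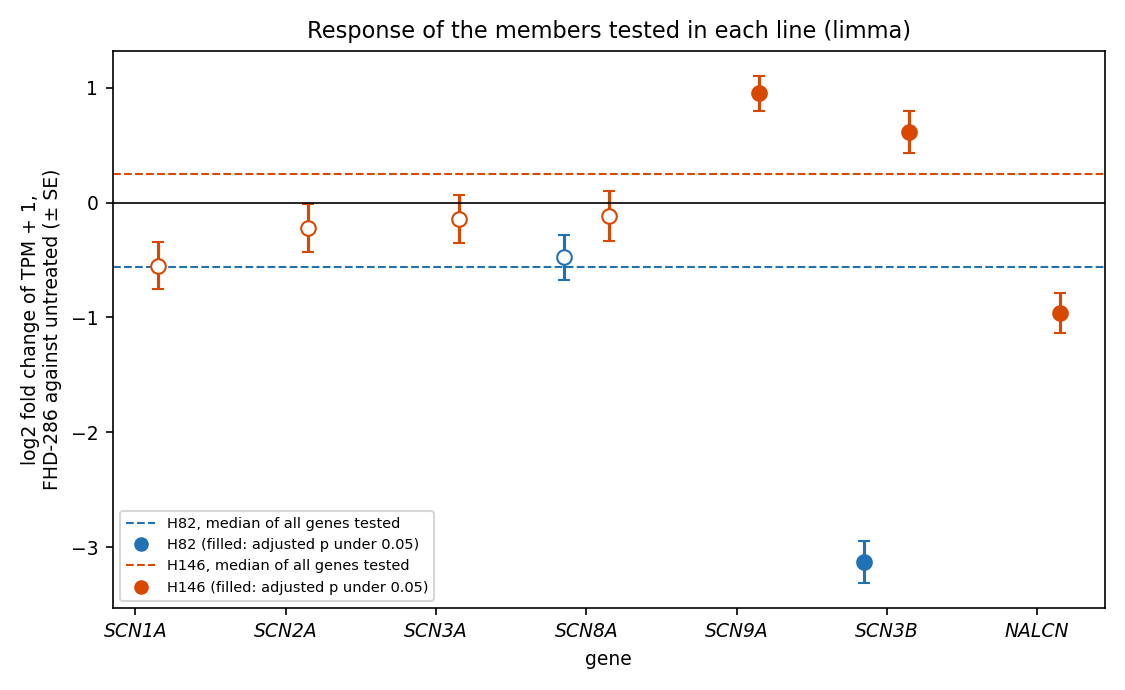
log2 fold change of TPM + 1 (FHD-286 against untreated, limma, bars are SE) for the 7 members tested in at least 1 line, with H82 in blue and H146 in orange, filled where the adjusted p is under 0.05 and with dashed lines at the median of all genes tested. SCN3B lies at -3.13 in H82 and at 0.61 in H146, and NALCN at -0.96 in H146.

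The α subunit genes *SCN1A*, *SCN2A*, *SCN3A* and *SCN9A* lie with *SCN7A* in a cluster on chromosome 2 (hg38, GENCODE release 44, chr2:165087526-166611482). *SCN8A* is on chromosome 12 (chr12:51590266-51812864), *SCN2B* and *SCN3B* are on chromosome 11 (chr11:118162806-118176639 and chr11:123629187-123655244), and *NALCN* is on chromosome 13 (chr13:101053776-101416508). RefSeq start windows (GRCh38.p14, 250 bases before to 50 after an annotated start) were given for 6 of the 8 genes, as 8 windows, and not for *SCN3A* and *SCN3B*. GC content split them: 84.0% for *SCN8A*, 73.3% for *SCN9A* and 62.0% for *NALCN*, against 31.7% and 33.3% for *SCN2A*, 37.0% and 46.3% for *SCN1A* and 39.7% for *SCN2B*, with a median of 58.7% over all 35116 windows. The stretches before the start that overlap no GENCODE exon are shown for the 2 genes called in opposite directions in H146, for *SCN8A*, tested in both lines, and for 1 window of *SCN1A*, 5′ to 3′ on the strand of the gene. Capitals mark a match to CAGATG, an E-box that NEUROD1 can bind, or to CAGCACC, the left part of the element bound by the neuronal repressor REST, on either strand.
SCN9A, chr2:166376002-166376194, minus strand: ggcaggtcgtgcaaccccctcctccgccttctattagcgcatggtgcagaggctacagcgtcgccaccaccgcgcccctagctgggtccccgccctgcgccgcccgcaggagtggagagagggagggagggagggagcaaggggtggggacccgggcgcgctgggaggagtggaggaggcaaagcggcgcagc
NALCN, chr13:101416509-101416758, minus strand: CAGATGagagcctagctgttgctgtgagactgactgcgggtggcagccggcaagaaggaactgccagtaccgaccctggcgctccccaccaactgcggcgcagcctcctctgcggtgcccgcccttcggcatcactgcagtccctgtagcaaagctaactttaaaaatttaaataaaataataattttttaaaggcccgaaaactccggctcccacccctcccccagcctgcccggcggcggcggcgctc
SCN8A, chr12:51591000-51591223, plus strand: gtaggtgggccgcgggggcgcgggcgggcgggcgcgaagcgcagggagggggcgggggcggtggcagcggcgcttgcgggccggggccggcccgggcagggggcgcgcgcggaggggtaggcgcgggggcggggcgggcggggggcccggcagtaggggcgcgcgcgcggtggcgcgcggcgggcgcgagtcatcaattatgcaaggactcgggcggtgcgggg
SCN1A, chr2:166128040-166128270, minus strand: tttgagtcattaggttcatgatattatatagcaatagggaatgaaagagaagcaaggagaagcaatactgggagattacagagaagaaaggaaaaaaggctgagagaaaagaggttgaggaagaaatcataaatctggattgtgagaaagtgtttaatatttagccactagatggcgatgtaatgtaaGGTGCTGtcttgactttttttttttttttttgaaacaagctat
*SCN9A* and *SCN8A* had no match to either motif in these windows, *NALCN* held 1 E-box at the far end of its window and *SCN1A* held 1 left part of the REST element on the opposite strand, at -62 bases from the start. Of all windows, 14.7% held the E-box and 7.75% the left part. The right part of the REST element, GGACAG, was in none of the 8 windows and in 20.6% of all windows. No overlap between matches of these motifs occurred in the windows of the members.

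The joined REST element, searched as CAGNACCNNGGACAG on both strands, was found within 5000 bases of a RefSeq start in *SCN2A* and *SCN1A* and in none of the other 4 genes with a window, and near 0.97% of all 35116 starts. Both matches, shown 5′ to 3′ on the strand of the match so that the shared letters can be compared, lie in introns of annotated transcripts and overlap no exon. Counted along the gene, the one in *SCN2A* begins at -928 bases from the nearer RefSeq start and the one in *SCN1A* at 1059 bases from one.
SCN2A, chr2:165238486-165238500, plus strand: cagcaccatggacag
SCN1A, chr2:166148088-166148102, minus strand: cagtaccttggacag
A match is a description of letters, and binding was not measured in these data. *REST*, the gene of that repressor, stood at 7.61, 8.64 and 7.46 TPM in untreated H82 and at 8.64, 7.74 and 10.4 TPM with FHD-286, groups that overlap (log2 fold change 0.15 ± 0.18 SE, limma adjusted p = 0.498). It was called higher in H82 when libraries were scaled by the median of ratios (log2 fold change 0.59) or by quantiles (0.88). In H146 it stood at 0.254, 0.168 and 0.252 TPM untreated and at 0.537, 0.520, 1.41 and 1.37 TPM treated, below the filter. Every treated H146 library was above every untreated one. These values are per gene and do not separate active *REST* from its inactive splice isoforms. The paper reported by PCR that FHD-286 lowered the inactive isoforms in both lines, so the level of active *REST* cannot be read from these values.

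Among the α subunits the clearest difference was in *SCN9A*, which encodes a channel best known from pain-sensing neurons, where it amplifies small depolarisations. In H146 it stood at 12.1, 11.3 and 8.60 TPM untreated and at 23.6, 21.6, 19.8 and 20.6 TPM with FHD-286. Every treated library was above every untreated one. The mean rose 2.01-fold, from 10.7 ± 1.84 (SD, n = 3) to 21.4 ± 1.66 TPM (SD, n = 4), a log2 fold change of 0.95 ± 0.15 (SE), at a limma adjusted p of 0.00146. The call was kept in all 13 alternatives with a test, with adjusted p from 0.00131 to 0.00838 and a log2 fold change from 0.65 to 1.04. In H82 *SCN9A* was near the lower limit of the table, at 0.0419, 0.132 and 0.0447 TPM untreated and 0.296, 0.768 and 0.0650 TPM treated, and the groups overlapped (two-sided exact permutation p = 0.20).

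The highest treated H82 value of *SCN9A*, 0.768 TPM, belonged to treated replicate 2, a library that stood apart from the other treated H82 libraries. Its summed TPM over 6 epithelial markers was 114, against 15.7 and 9.17 in the other treated H82 libraries, 1.57 to 3.85 in untreated H82 and 575 to 2404 in H146. Of 151 genes with at least 20 TPM in every H146 library and under 1 TPM in every untreated H82 library, 107 were highest there, at a median of 4.46% of their treated H146 mean. The part of this in the H82 values of *SCN9A* and *SCN1A* was not tested.

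*SCN1A*, whose channel serves inhibitory interneurons, was the other gene of the cluster with separate groups in H146. It stood at 4.83, 5.29 and 3.70 TPM untreated and at 3.64, 3.12, 2.61 and 2.02 TPM treated, so that the highest treated library lay just under the lowest untreated one. The log2 fold change was -0.55 ± 0.20 (SE) with a limma adjusted p of 0.0527, which missed the threshold. It passed with a log2 fold change of -0.80 (adjusted p = 0.0123) after scaling by the median of ratios, with -0.81 after quantile normalization, and without treated replicate 1 (adjusted p = 0.0407) or replicate 2 (adjusted p = 0.0409). In H82 it stood at 0.124, 0.107 and 0.169 TPM untreated and at 0.0705, 0.278 and 0.0527 TPM treated, with the highest value again in treated replicate 2 and overlapping groups (two-sided exact permutation p = 1).

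*SCN2A* and *SCN3A*, which encode channels of excitatory and of embryonic neurons, were among the more abundant members in H146 and were not called there. *SCN2A* had 10.4, 11.8 and 6.81 TPM untreated and 7.13, 6.73, 9.19 and 9.04 TPM treated. *SCN3A* had 22.2, 21.3 and 18.6 TPM untreated and 17.998, 12.7, 22.4 and 23.3 TPM treated. In both genes treated replicates 1 and 2 were below replicates 3 and 4, and the groups overlapped. The log2 fold change was -0.22 ± 0.21 (SE, limma adjusted p = 0.404) for *SCN2A* and -0.14 ± 0.21 (SE, limma adjusted p = 0.600) for *SCN3A*. After scaling by the median of ratios *SCN2A* reached -0.51 with an adjusted p of 0.0447, and without treated replicate 2 the sign of *SCN3A* turned to 0.03.

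In H82 both genes were low and lay below the filter. *SCN2A* was at 0.842, 0.810 and 0.803 TPM untreated and at 0.383, 0.275 and 0.231 TPM treated, and *SCN3A* at 1.56, 1.21 and 0.957 TPM against 0.413, 0.494 and 0.791 TPM. The treated libraries lay below the untreated ones in both, by 2.76-fold and 2.20-fold in the mean, and the two-sided exact permutation p was 0.10 for each, the smallest that 3 against 3 libraries allow. Under quantile normalization both turned sign, to 0.21 and 0.35 in log2 fold change. Olfactory receptor genes, usually silent outside the nose, served as a measure of stray signal: 12.5% to 15.5% of 400 such genes reached 0.1 TPM in untreated H82 and 4.25% to 7.5% in treated H82. Its part in H82 values under 1 TPM was not tested. *SCN2A* and *SCN3A* overlap by 9058 bases on opposite strands, and a long noncoding gene, *SCN1A-AS1*, spans *SCN1A* and *SCN9A* on the opposite strand. Whether counting used strand, and how reads shared by similar family members were assigned, was not given in the sources used here, so such reads cannot be told apart.

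*SCN8A*, whose channel dominates at the initial segment and nodes of mature axons, was the only α subunit member tested in both lines. In H82 it stood at 3.85, 4.38 and 4.08 TPM untreated and at 3.32, 2.28 and 2.48 TPM treated. The groups did not overlap, with a log2 fold change of -0.48 ± 0.20 (SE) and a limma adjusted p of 0.0747. That value lay 0.08 above the median of all genes in H82. It passed without treated replicate 1, at -0.60 with an adjusted p of 0.0244, and turned to 0.51 (adjusted p = 0.0532) under quantile normalization. In H146 it stood at 9.16, 9.08 and 5.27 TPM untreated and at 7.33, 8.36, 6.65 and 5.68 TPM treated, and the groups overlapped at -0.12 ± 0.22 in log2 fold change (SE, limma adjusted p = 0.676). In H146, untreated replicate 3 was the lowest untreated library for each of the 7 members above the filter, as it was for 52.5% of all genes tested.

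The composition of the α subunit transcripts is given as a description, without a test, over the 5 α subunit members. Their summed TPM was 53.5 ± 9.10 (SD, n = 3) in untreated and 58.4 ± 3.96 (SD, n = 4) in treated H146, and 6.37 ± 0.292 against 4.06 ± 0.434 TPM (SD, n = 3 each) in H82. *SCN9A* made up 19.96% ± 0.730 of that sum in untreated H146 and 36.8% ± 4.14 in treated H146. *SCN3A* held 39.1% ± 3.70 and 32.4% ± 6.57, *SCN2A* 17.9% ± 2.14 and 13.7% ± 1.58, and *SCN1A* 8.62% ± 0.389 and 4.92% ± 1.33. In H82 *SCN8A* held 64.5% ± 3.92 untreated and 66.1% ± 9.45 treated.

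**Figure D3:**
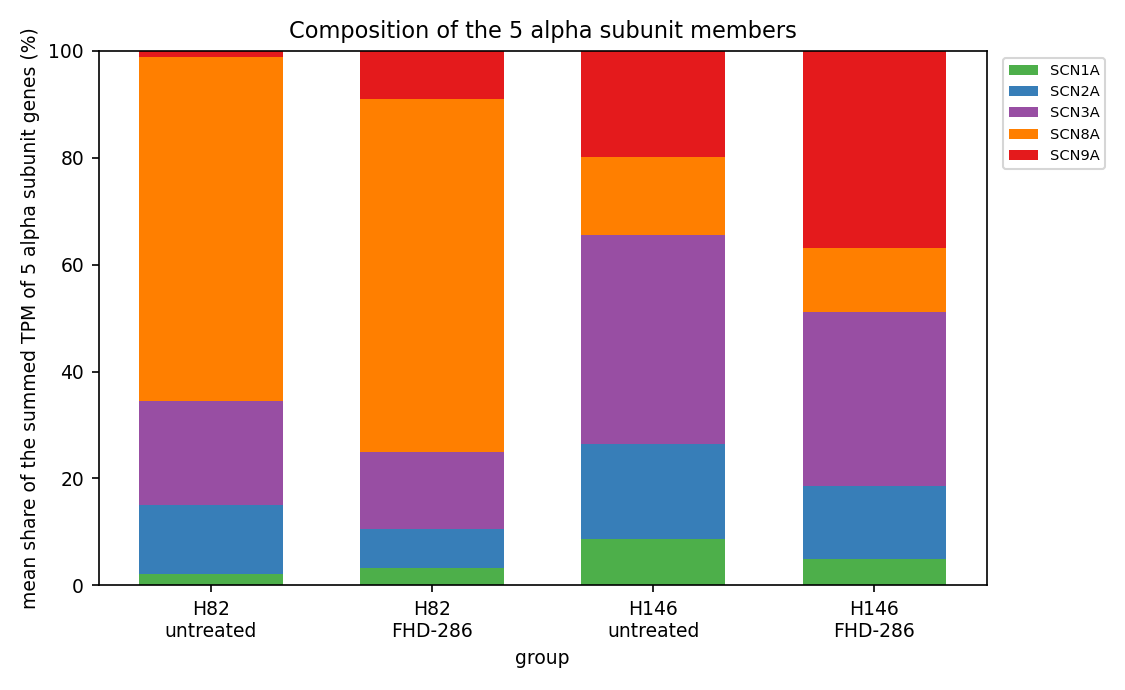
Mean share (%) of each α subunit member in the summed TPM of the 5 α subunit members, stacked to 100 for the 4 groups (3 libraries each, 4 for treated H146). SCN8A fills 64.5% and 66.1% of the H82 bars, and SCN9A widens from 19.96% to 36.8% between untreated and treated H146.

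A further 5 sodium channel subunit genes were listed by family, *SCN4A*, *SCN7A*, *SCN10A*, *SCN11A* and *SCN4B*. None of them was tested in H82. In H146 only *SCN4A*, the gene of the skeletal muscle channel, was tested, and it stood at -0.21 in log2 fold change (adjusted p = 0.373).

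The β subunit gene *SCN3B* had the largest difference of any member, in H82. It stood at 13.3, 15.5 and 13.04 TPM untreated and at 0.720, 0.748 and 0.647 TPM with FHD-286. The ranges lay far apart and the 3 treated libraries, replicate 2 included, were close to each other. The mean fell from 13.9 ± 1.33 to 0.705 ± 0.0521 TPM (SD, n = 3 each), 19.8-fold, with a log2 fold change of -3.13 ± 0.18 (SE) on TPM + 1, 2.57 below the median of all genes, and a limma adjusted p of 0.000101. With nothing added to the TPM the log2 ratio of the means was -4.30. Between the same groups the share of TPM on mitochondrial genes went from 22.1% to 24.1% untreated to 12.3% to 14.9% treated, and the number of genes at 1 TPM or more from 21225 to 21770 to 15552 to 16631. In H146 the mitochondrial share overlapped, at 7.56% to 8.86% untreated and 3.82% to 11.4% treated, and 17474 to 17963 untreated against 18776 to 19307 treated genes reached 1 TPM. The part of these shifts in the member results was not tested. *SCN3B* passed the filter in H82 through its untreated libraries alone, so its ranges had to lie apart. That selection did not fix the size of the gap. With 1 untreated library left out it fell below the filter. With the genes tested held fixed at those passing with all libraries, its log2 fold change ran from -3.17 to -3.06. The limma adjusted p ran from 0.000932 to 0.00115. That fixed set keeps the same selection, so the refit adds no support to the call.

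In H146 *SCN3B* was low and moved the other way, at 1.15, 0.922 and 0.701 TPM untreated and at 2.48, 1.90, 1.80 and 1.62 TPM treated. All 4 treated libraries were above the untreated ones and the mean rose 2.11-fold, with a log2 fold change of 0.61 ± 0.18 (SE) and a limma adjusted p of 0.0236. It reached 1 TPM in 1 untreated and 4 treated libraries and so passed the filter mainly through the treated ones. The call was lost in 6 of 13 alternatives, after scaling by the median of ratios (adjusted p = 0.0748) or by quantiles (0.0934), with no filter on low values (0.0646), with a replicate block (0.0636), and without untreated replicate 2 (0.0774) or replicate 3 (0.0961), with no change of sign.

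*SCN2B*, the other β subunit member, was barely present. It was listed at 0 in all untreated libraries of both lines, at 0.103, 0 and 0.0438 TPM in H82 with the drug and at 0.0754, 0.0548, 0.0184 and 0.0172 TPM in treated H146. No fold is given against 0. The two-sided exact permutation p was 0.40 in H82 and 0.0857 in H146, and reads per library are unknown, so no detection limit can be set.

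*NALCN* passed the filter in H146 and not in H82. In H146 it stood at 10.2, 8.86 and 7.07 TPM untreated and at 3.45, 3.96, 4.65 and 3.81 TPM with FHD-286. No treated library reached the lowest untreated one. The mean fell 2.20-fold, from 8.71 ± 1.57 (SD, n = 3) to 3.97 ± 0.503 TPM (SD, n = 4), with a log2 fold change of -0.96 ± 0.17 (SE), 1.21 below the median of all genes, and a limma adjusted p of 0.00276. The call was kept in all 13 alternatives, with adjusted p from 0.000447 to 0.0241. In H82 *NALCN* was at 0.0428, 0 and 0.0686 TPM untreated and at 0.160, 0.124 and 0.214 TPM treated, and although the treated libraries lay above the untreated ones, values this low had only the exact test, two-sided by permutation, at its smallest p of 0.10. An antisense gene, *NALCN-AS1*, overlaps *NALCN* by 5511 bases.

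The channel works in a complex with the large proteins UNC79 and UNC80 and with FAM155A or its relative FAM155B, which help it to reach the membrane. In H146, 2 of the 4 partner genes were called higher, where 32.5% of all tested genes were, and none lower by limma, with 0 lower also at an unadjusted p under 0.05. *FAM155A* stood at 7.58, 9.96 and 7.27 TPM untreated and at 24.8, 20.7, 21.8 and 23.6 TPM treated, or 1.36 in log2 fold change (adjusted p = 0.000255). *FAM155B* stood at 3.34, 5.28 and 2.70 TPM untreated and at 8.73, 7.54, 8.34 and 9.95 TPM treated, or 1.04 in log2 fold change (adjusted p = 0.0043). Both had separate groups, while those of *UNC79* (log2 fold change 0.40, adjusted p = 0.168) and *UNC80* (0.17, adjusted p = 0.509) overlapped. In H82, where *NALCN* was near 0, *UNC80* and *UNC79* were called lower. Both passed the filter through their untreated libraries alone, so their ranges had to lie apart, a selection that favours a difference. With any untreated library left out neither was tested. *UNC80* had 3.40, 3.80 and 2.998 TPM untreated and 0.310, 0.295 and 0.166 TPM treated (log2 fold change -1.80, limma adjusted p = 0.00037). *UNC79* had 1.23, 1.45 and 1.19 TPM untreated and 0.172, 0.787 and 0.102 TPM treated (log2 fold change -0.79, limma adjusted p = 0.0244), a call that was lost at -0.60 after scaling by the median of ratios. *FAM155B* was the most abundant partner there, with 42.6 to 51.9 TPM untreated and 24.6 to 67.1 TPM treated, and was not called.

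**Figure D4:**
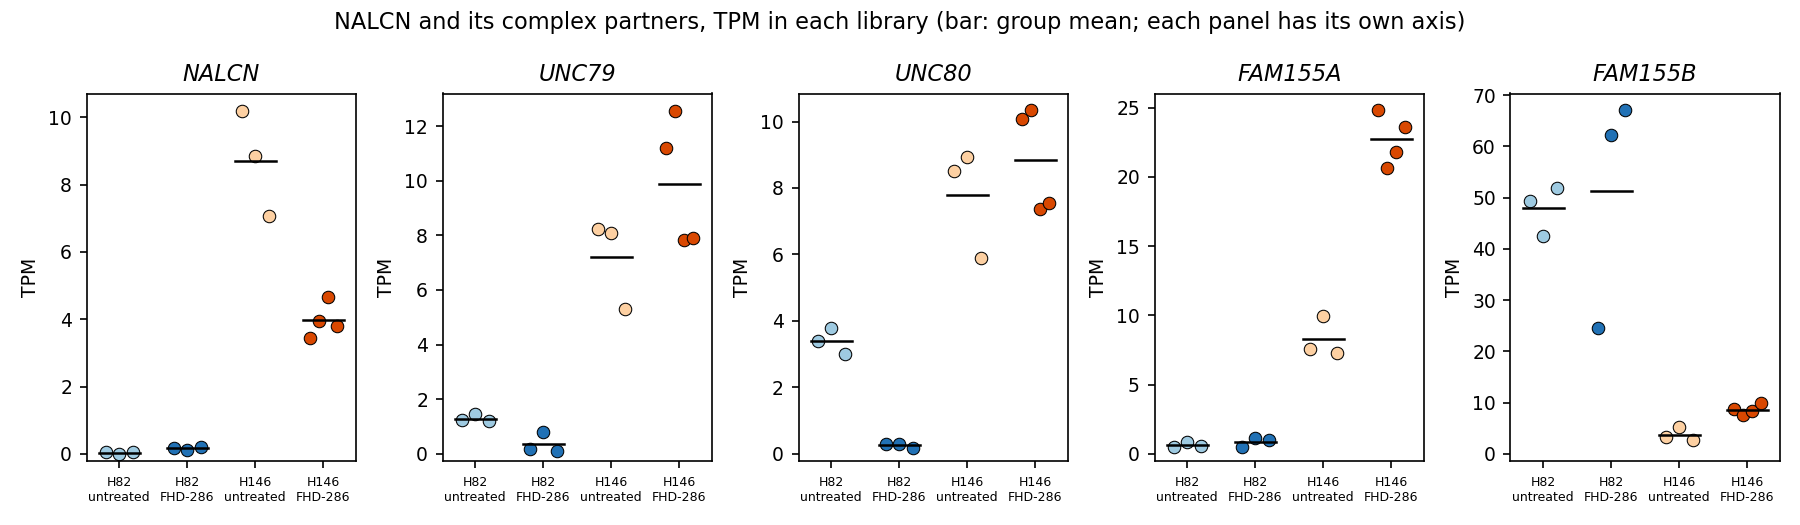
TPM of NALCN and its 4 partner genes (one panel each, linear axis from 0, each panel with its own range) in every library, with a bar at the group mean. In H146 NALCN lies at 3.45 to 4.65 TPM in treated libraries, below the untreated ones, while FAM155A at 20.7 to 24.8 TPM lies above them, and FAM155B is highest in H82.

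The responses of the 2 lines were then compared in 1 fit over all 13 libraries, as the log2 fold change in H82 minus that in H146. Of the 7 members tested, *SCN3B* and *NALCN* were called, where 60.2% of all genes tested were. *SCN3B* differed by -3.74 ± 0.23 (SE, limma adjusted p = 2.64e-07), with a fall in H82 and a rise in H146. It passed the filter in H82 through untreated libraries alone and in H146 mainly through treated ones. That selection favours a difference, so this p is not read as support. The H146 call of *SCN3B* was itself lost in 6 of 13 alternatives. *NALCN* differed by 1.13 ± 0.23 (SE, limma adjusted p = 0.00105), with a fall in H146 and values of at most 0.214 TPM in H82. Untreated H82 values of at most 0.0686 TPM left no room for a fall, so a different response of *NALCN* cannot be read from this. Both calls were kept in all 19 alternatives. *SCN9A* stood at -0.62 ± 0.28 (SE, limma adjusted p = 0.0695) and passed without H82 treated replicate 2, the library that stood apart, at -0.82 (adjusted p = 0.0152), but its sign turned under quantile normalization (0.027) and with a pseudocount of 0.1 (0.18), so no direction is given for it. *SCN1A* stood at 0.55 ± 0.26 (SE, limma adjusted p = 0.0853). It passed at 0.85 after scaling by the median of ratios (adjusted p = 0.0144) and at 1.17 after quantile normalization (adjusted p = 0.00342). Without H146 treated replicate 1 it passed at 0.64 (adjusted p = 0.0452). Untreated H82 values of *SCN1A* of at most 0.169 TPM left no room for a fall there either. A different response of *SCN1A* therefore cannot be read from these fits. *SCN2A*, *SCN3A* and *SCN8A* stood between -0.38 and -0.27 with limma adjusted p from 0.301 to 0.427, and their sign turned after scaling by the median of ratios, so none is given for them either.

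**Figure D5:**
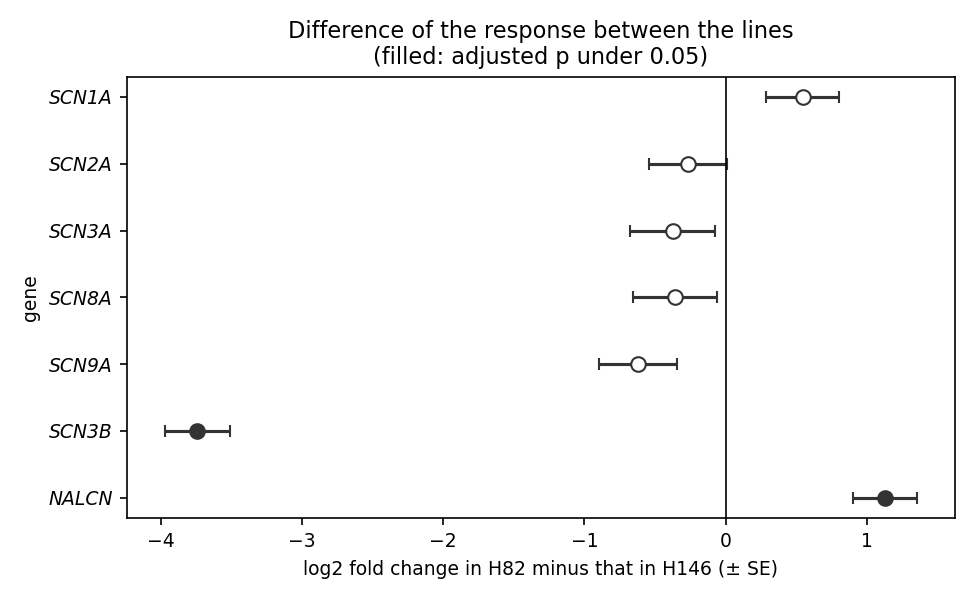
log2 fold change in H82 minus that in H146 (x axis, bars are SE) for the 7 members tested, filled where the adjusted p is under 0.05. SCN3B lies at -3.74 and NALCN at 1.13, and the 5 α subunit members lie between -0.62 and 0.55, unfilled.

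Sodium channels are held in the membrane and tuned by ankyrins, adhesion molecules, FGF homologous factors and other partners, of which 15 genes were listed. In H82, 8 of 14 tested were called lower and 2 higher, where 45.5% and 13.1% of all tested genes were. Their median log2 fold change was -0.71, where that of all genes was -0.56. After scaling by the median of ratios the counts were 5 lower and 3 higher. *NRCAM* (-1.84) and *NFASC* (-1.57), adhesion molecules of the axon initial segment, were called lower, as was *ANK2* (-1.12), and *GPD1L* (1.68) higher. In H146, 4 of 12 were called lower and 2 higher, their median was -0.26, where that of all genes was 0.25, and 6 lower and 1 higher after scaling by the median of ratios. *ANK3*, the gene of ankyrin-G, which anchors sodium channels at the initial segment, rose by 1.46, from 9.43 ± 2.37 (SD, n = 3) to 27.3 ± 3.13 TPM (SD, n = 4), and its relative *ANK2* fell from 31.8 ± 7.90 to 9.59 ± 0.181 TPM (log2 fold change -1.60). *GPD1L* (-0.77) was called lower in this line, and *FGF12* (0.69), the gene of an FGF homologous factor, was called higher.

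The genes next to the cluster on chromosome 2 were listed to set the members beside their neighbourhood. In H82, 2 of 5 tested were called lower, where 45.5% of all tested genes were, and none higher by limma, 0 also at an unadjusted p under 0.05, and after scaling by the median of ratios none was lower and 1 higher. In H146, 2 of 6 were called lower and 1 higher, the same counts as after that scaling, against 15.5% and 32.5% of all tested genes. Sodium pump subunits, which clear sodium from the cell, had 3 lower and 1 higher of 6 tested in H82 and none called of 5 in H146 by limma, where at an unadjusted p under 0.05 none was lower and 1 higher. Epithelial and acid-sensing sodium channels had 2 lower of 4 tested in H82. In H146, 1 was lower and 4 were higher of 5 tested, where 15.5% and 32.5% of all tested genes were. After scaling by the median of ratios the counts were 0 lower in H82 and 1 lower and 3 higher in H146. *ATP1A4*, called lower in H82, passed the filter through untreated libraries alone, and *SCNN1G*, called higher in H146, through treated ones alone. The shares called lower in H82 in these lists were near that of all tested genes, and nothing is read from them.

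For each member tested, the genes with the most similar profile were found among 23673 genes as those with the smallest root-mean-square difference of centred log2(TPM + 1) over the 13 libraries, a description that rests largely on the difference between the lines. The nearest genes were *ZNF423* and *ANXA9* for *SCN1A* (differences of 0.14 and 0.16), *SNAP91* and *PTPRO* for *SCN9A* (0.14 and 0.20), *SOCS2* and *FAM198B* for *SCN3A* (0.23 for both), *CDKN2B-AS1* and *MARS* for *SCN8A* (0.13 and 0.14), and *JAKMIP3* with the noncoding *RP11-1038A11.3* for *SCN2A* (0.20 and 0.18). *NALCN* was nearest to a noncoding gene known by a clone name and to *GTPBP2* (0.16 and 0.18), and *SCN3B* to *RP11-557N21.1* and *AC079807.3* (0.22 and 0.23). As an example, *SNAP91*, a synaptic vesicle gene, averaged 12.7 ± 0.656 TPM in H146 without and 22.5 ± 2.14 TPM with the drug, and 0.116 and 0.679 TPM in H82, beside *SCN9A* at 10.7 ± 1.84 and 21.4 ± 1.66 TPM.

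The label of the lines was checked against markers. The 6 neuroendocrine and SCLC markers summed to 700 to 781 TPM in untreated H82 and 1441 to 1751 TPM in untreated H146. With the drug they summed to 266, 736 and 438 TPM in H82 and to 1030 to 1289 TPM in H146. The 736 TPM belonged to H82 treated replicate 2, the library that stood apart, where *INSM1* alone had 296 TPM. *NEUROD1*, the factor that names SCLC-N, averaged 230 TPM in untreated H82 and 0.393 TPM in untreated H146. In H82, where *SCN3B* fell, 3 of these 6 markers were called lower and 1 higher, where 45.5% and 13.1% of all tested genes were. The marker called higher was *INSM1*, a neuroendocrine factor, at 12.5 to 15.8 TPM untreated and at 32.1, 296 and 33.9 TPM treated. Its limma adjusted p was 0.0498, and the call was lost with any untreated library left out. Without treated replicate 1 the count higher was 3. Of the epithelial markers *KRT8* and *KRT18*, and of the fibroblast markers *COL1A2*, *DCN* and *LUM*, were called higher, but apart from *LUM* these were under 1 TPM in every untreated library and passed the filter through the treated ones alone. With any treated library left out only 1 marker of either list was tested. Summed fibroblast markers went from 1.70 to 2.50 TPM untreated to 7.92 to 33.3 TPM treated. The lymphocyte markers *CD3E* and *CD2* were at 0 in every H82 library, and 1 of 5 lymphocyte markers was tested and called lower, having passed the filter through the untreated libraries alone. In H146, where *SCN9A* rose and *NALCN* fell, 4 of 5 tested epithelial markers were lower and 1 of 2 fibroblast markers was higher. There, 2 of 5 SCLC markers and 1 of 2 glial markers were lower. Of all genes tested in H146, 15.5% were called lower and 32.5% higher. The part of these marker shifts in the member results was not tested, and in bulk RNA fewer cells that express a gene and less RNA per cell cannot be told apart.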

How the data were processed

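RNA was measured by sequencing in 13 libraries of H82 and H146 cells. The authors mapped reads with STAR to hg38, used the GENCODE annotation, release 28, compared groups with DESeq2, and deposited 1 table of TPM values per line. The submitters' processing notes also list Trim Galore 0.4.4 for these libraries, without its role. TPM carry no read depth, so no counting interval was drawn and precision comes from the spread between libraries. From the TPM, each line was fitted with limma 3.58.1 (R 4.3.3; lmFit, eBayes with trend) on log2(TPM + 1), over genes at 1 TPM or more in at least 3 libraries, with Benjamini-Hochberg adjustment and a threshold of 0.05. The study's count test could not be run on TPM. The interaction of line and treatment was fitted over 13 libraries.

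The members, gene lists and tests were chosen with earlier results of these data known. Named genes were all members, called genes of the subunit, partner and anchor lists (at most 4 per list and line), and 2 similar profiles per member. Some genes of these lists are not reported here and are left out of the counts. Alternatives were 2 scalings, a pseudocount of 0.1, no filter, eBayes without trend, a replicate block, each library left out, and the ratio of mean TPM. Positions and exons came from GENCODE release 44 and start windows from RefSeq. Python 3.11.15 prepared the tables.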

Additional observations from a re-analysis of the deposited data

Results flagged for a closer look

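*SCN3B* and *NALCN* are set apart because the interaction fit of limma called a difference between the lines in their log2 fold change. For *SCN3B* the log2 fold change in H82 minus that in H146 was -3.74. It fell in 3 of 3 treated H82 libraries and rose in 4 of 4 treated H146 libraries. In each line it passed the filter only or mainly through the higher group, a selection that favours such a difference. For *NALCN* the difference was 1.13, with a fall in 4 of 4 treated H146 libraries and values near 0 in H82, where no fall could have been seen. No member had a treated H146 library that stood outside its group by Dixon's test, and groups of 3 were not tested.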

How the results depend on the processing

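The calls of *SCN9A* and *NALCN* in H146 were kept in every alternative that could be fitted. That of *SCN3B* in H82 was kept in all 12 alternatives with a test, the one with no filter included. Its log2 fold change there ran from -4.12 to -2.34. In the main fit it passed the filter through its untreated libraries alone, a selection that favours a difference. In H82 the count of members called lower ran from 0 to 2 with 1 library left out, 0 because *SCN3B* then lacked 3 libraries at 1 TPM; the fit with the genes held fixed was chosen after seeing the data. In H146 the count lower was 3 after scaling by the median of ratios and 2 after quantile normalization and with eBayes without trend, and 1 to 2 with 1 library left out, through *SCN1A* and, in the first case, *SCN2A*. The count higher in H146 was 1 after either scaling, with no filter and with the replicate block, and 1 to 2 with 1 library left out, through *SCN3B*. In the comparison between lines the count higher was 2 after scaling by the median of ratios and 4 after quantile normalization, against 1, and 1 to 2 with 1 library left out, and the count lower was 2 with a pseudocount of 0.1 and 1 to 2 with 1 library left out.

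Signs turned for several members. Under quantile normalization *SCN8A* in H82 was 0.51, and the difference between lines was 0.71 for *SCN2A* (adjusted p = 0.0284) and for *SCN3A*, 0.88 for *SCN8A* (adjusted p = 0.0118) and 0.027 for *SCN9A*. After scaling by the median of ratios it was 0.19 for *SCN2A*, 0.15 for *SCN3A* and 0.30 for *SCN8A*, and with a pseudocount of 0.1 it was 0.18 for *SCN9A*. With 1 library left out *SCN3A* in H146 ran from -0.24 to 0.031, the latter without treated replicate 2. Below the filter in H82, *SCN1A* turned to 0.050 by the median of ratios and 0.36 by quantiles and ran from -0.094 to 0.046 with 1 library left out, *SCN2A* to 0.21 and *SCN3A* to 0.35 by quantiles. The cause was not tested.

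Libraries share replicate numbers, but same-numbered libraries did not deviate together: the correlations of their deviations ran from -0.11 to 0.03, so the number was not taken as a pairing. With the replicate block, 1 member was higher in H146, since *SCN3B* stood at 0.67 with an adjusted p of 0.0636, and no other call of a member changed. The depth of the libraries is unknown, which limits what values under 1 TPM can show.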
